A study of Mus musculus with 2 samples.

Results

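The mouse assembly mm10 holds sequence that could not be placed on any chromosome (contigs named chrUn) and sequence assigned to a chromosome without a position on it (unlocalized contigs, named after the chromosome with the ending _random). The 700 peaks described here were all those of the Mov10 RIP-seq list on chrUn contigs or on unlocalized contigs of autosomes, whatever their adjusted p, out of 2296 peaks in all. They lay on 36 contigs, 204 peaks on 20 unplaced contigs and 496 on 16 unlocalized contigs of chromosomes 1, 4, 5 and 7, with 361 peaks on the plus and 339 on the minus strand. Another 714 peaks lay on contigs of chromosomes X and Y and 882 on the assembled chromosomes.

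The study sequenced RNA immunoprecipitated (IP) with a Mov10 antibody and, for comparison, total RNA of the input, in a single library each. Both came from brain of C57bl/6 mice at postnatal day 2, from a pool of 28 wild-type pups, so neither sex, nor cell type, nor the spread between animals can be seen. The question was which RNAs are more abundant in the Mov10 IP than in the input. Listed markers of cell types were looked up among the chromosome peaks, on the strand opposite to their exon. A peak was present for 9 of 20 neuron, 3 of 5 astrocyte and radial glia, 1 of 5 oligodendrocyte and 2 of 4 vascular markers. Among them were Tubb3, Snap25, Map2 and Apoe. None of the 4 microglia, 2 blood and 1 choroid plexus markers had one. A peak is a call of IP against input and not a measure of expression. The share of all genes with a peak was not counted. These counts therefore do not show which cell types were present or absent. The IP made with a control antibody was not used here.

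Mov10 is an RNA helicase known for binding 3′ untranslated regions of mRNAs and for restraining retrotransposons in cultured cells. Contigs stay unplaced mostly because they hold repeats, and those on these contigs are of several kinds. Major satellite (GSAT_MM) is the tandem repeat of pericentromeric heterochromatin, which can be transcribed from either strand. L1 elements are LINEs, retrotransposons that encode their own reverse transcriptase. LTR elements such as IAP, MERVL and the MTA group descend from retroviruses, and SINEs are short elements copied with the L1 machinery. Other contigs hold gene families with near-identical copies, such as chemokine and vomeronasal receptor genes. A read from such sequence aligns to many places, and the peak caller gave each of these reads a single place, so a count on a contig is the number of reads placed there and other copies cannot be told apart from it.

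Contig peaks held few reads. The median peak had 6 reads in the IP and 1 in the input. These medians were 7 and 2 on the contigs of X and Y, and 1721 and 98 on the assembled chromosomes, where no peak had fewer than 226 IP reads. Of the 700 peaks, 194 held at most 3 IP reads, 221 at least 10 and 19 at least 100, and those 19 carried 78.6% of the IP reads of all 700. The 700 peaks covered 294147 bases, with lengths from 174 to 6240 bases and a median of 220. They made up 30.5% of the list but held only 1.25% of its IP reads and 1.74% of its input reads. Because single peaks were so shallow, reads were summed per contig and per strand.

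In the 700 peaks together, 29360 IP reads stood against 16156 input reads, or 99.8 and 54.9 reads per 1000 bases of peak. Each sum was divided by the aligned reads of its library (1.20 IP reads were aligned per input read), and the ratio of these shares was 1.51 (95% interval 1.49 to 1.54). The interval is the exact conditional binomial one and covers counting error only. The same ratio was 2.101 (2.014 to 2.191) on the contigs of X and Y and 2.12 (2.11 to 2.12) on the assembled chromosomes. A single contig set the value, as 61.2% of the IP reads and 79.0% of the input reads lay in the 4 satellite peaks of chrUn_JH584304. Without it, 11392 IP reads and 3390 input reads gave a ratio of 2.80 (2.70 to 2.91). Dividing by uniquely aligned reads multiplies each ratio by 0.613, which turned the sum over all 700 peaks to 0.928.

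Summed per contig, 32 of 36 contigs had a ratio with its interval above 1, 1 had it below 1 and 3 had neither. Among the 32 was chr5_JH584298_random, whose plus strand alone had a ratio of 0.947 (0.855 to 1.05). The same count was not made for the contigs of X and Y or the assembled chromosomes. The peaks were called from these same IP and input reads, so ratios within them can be raised by how they were chosen. These counts therefore describe the called peaks and are no test of enrichment. The unlocalized contigs of chromosome 4 had the highest ratio, with 3128 IP and 521 input reads (ratio 5.005, interval 4.56 to 5.50). Those of chromosome 5 held 4440 and 1295 reads (2.86, 2.69 to 3.04), those of chromosome 7 held 188 and 57 (2.75, 2.03 to 3.77), and those of chromosome 1 held 2210 and 1170 (1.57, 1.47 to 1.69). Without the minus strand of chr5_JH584298_random, the contigs of chromosome 5 held 3362 and 1295 reads (2.16, 2.03 to 2.31). That strand held no input read and is described below. With or without that strand, the interval of chromosome 4 lay above those of the other 3 chromosomes and that of chromosome 1 below them. The unplaced contigs held 19394 IP and 13113 input reads (1.23, 1.21 to 1.26), and 1426 and 347 without chrUn_JH584304 (3.43, 3.04 to 3.86).

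**Figure D1:**
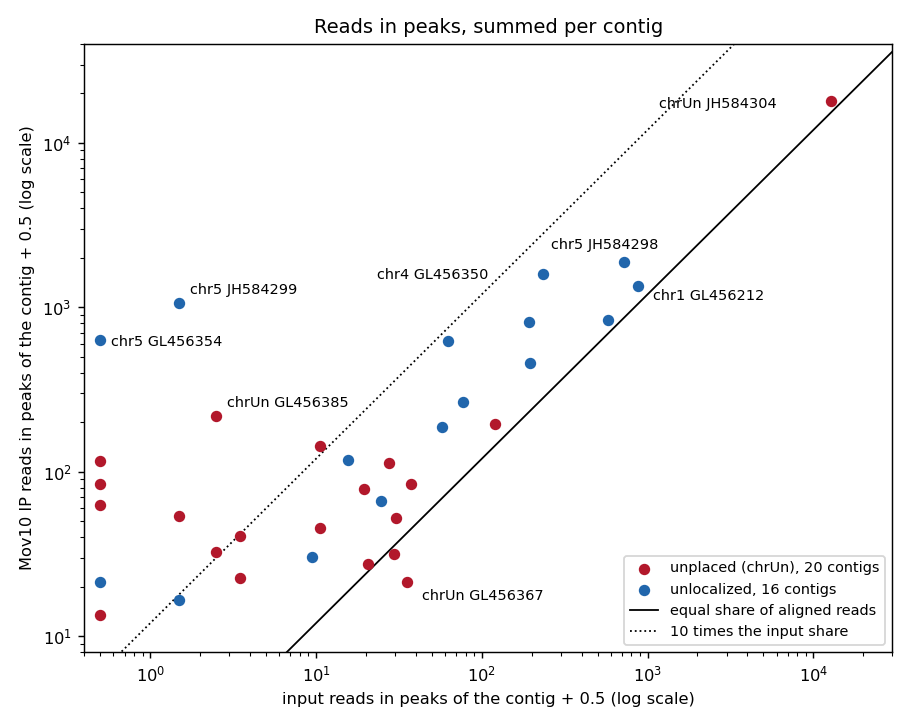
Mov10 IP reads against input reads in peaks, summed over each of the 36 contigs, with 0.5 added to both counts and both axes on a log scale; red points are unplaced and blue points unlocalized contigs, the solid line marks equal shares of aligned reads and the dotted line 10 times the input share. All contigs but chrUn_GL456367 and chrUn_GL456396 lie above the solid line, and 6 contigs without an input read line up at the left edge.

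The 4 peaks of chrUn_JH584304 each covered 200 bases inside a single major satellite array annotated on the minus strand at chrUn_JH584304:67398-114452. The minus-strand peak at chrUn_JH584304:68601-68800 held 5555 IP reads and 3913 input reads (ratio 1.18, interval 1.14 to 1.23). The plus-strand peak beside it, at 68401-68600, held 4206 and 3763 (0.932, 0.891 to 0.974). The plus-strand peak at 78401-78600 held 4141 and 5084, the most input reads of any contig peak (0.679, 0.652 to 0.708). The fourth peak stood apart, since the minus-strand peak at 90601-90800 held 4066 IP reads and only 6 input reads (565, 259 to 1540). IP reads thus ranged from 4066 to 5555 in the 4 peaks while input reads ranged from 6 to 5084.

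On the minus strand of this contig, which is the strand of the satellite annotation, the sum was 9621 IP to 3919 input reads (2.05, 1.97 to 2.12), and on the plus strand 8347 to 8847 (0.786, 0.763 to 0.810). The contig as a whole had a ratio of 1.17 (1.15 to 1.20), which fell to 0.719 with uniquely aligned reads and to 0.962 with sequenced reads as the divisor. All 4 peaks passed the adjusted p of 0.05, also those with more input than IP by share. The nearest annotated gene, AC149090.1 at 52190-59690, ended 8711 bases before the first of them. Satellite lay under 29 more peaks on 5 other unplaced contigs, with 1 base of overlap or more, and these held 76 IP reads and 23 input reads in all (2.75, 1.71 to 4.60). Of these, 5 peaks with 13 IP reads lay on chrUn_GL456390, where the input and its score were listed at 0. None of them had more than 9 IP reads, so nearly all satellite reads on contigs were placed in 4 windows of a single array.

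The second contig by reads, chr5_JH584298_random, had the most peaks, 71 on the plus and 127 on the minus strand. The plus strand held 813 IP and 716 input reads in 34100 bases of peak, a ratio of 0.947 (0.855 to 1.05). The minus strand held 1078 IP reads in 47250 bases and its input was listed at 0 in all 127 peaks, with an input score of exactly 0 in each. That is at least 299.5-fold higher in the IP against a floor of 3 reads. Of the 127 minus peaks, 50 overlapped a plus peak, and the 44 plus peaks they met held 583 IP and 530 input reads. Whether the input of this strand was read by the caller was not tested, so results that move with it are also given without it. The summed ratio of all contig peaks was 1.46 without this strand. None of its peaks passed the adjusted p of 0.05, and none of the 71 plus peaks did.

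The minus-strand peaks of this contig covered 26.2% of the sequence between the first and the last of them, and the plus-strand peaks 18.99%. Several plus-strand peaks went the other way. The peak at 64626-64900, in the internal part of a MERVL element, held 5 IP and 86 input reads (0.0485, 0.0153 to 0.118), and that at 54451-54725, in an Lx element, held 7 and 46 (0.127, 0.0483 to 0.283). Both were picked after their values were seen.

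On chr1_GL456212_random, 120 peaks held 1357 IP and 881 input reads in 39320 bases (1.28, 1.18 to 1.399). The plus strand had 1021 and 710 reads (1.20, 1.09 to 1.32) and the minus strand 336 and 171 (1.64, 1.36 to 1.98). No peak of this contig had more than 27 IP reads or passed the adjusted p. On chr5_JH584297_random, 70 peaks held 840 and 578 reads in 74550 bases (1.21, 1.09 to 1.35), with 473 and 406 on the plus strand (0.971, 0.849 to 1.11) and 367 and 172 on the minus strand (1.78, 1.48 to 2.14). The longest contig peak, 6240 bases at chr5_JH584297_random:46081-52320 on the plus strand, held 63 IP and 64 input reads. Together chr5_JH584298_random, chr1_GL456212_random and chr5_JH584297_random carried 388 peaks, 55.4% of the 700. With uniquely aligned reads as the divisor, the ratio was 0.787 on chr1_GL456212_random and 0.743 on chr5_JH584297_random.

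The next contigs had few peaks and many reads. On chr4_GL456350_random, 2 minus-strand peaks held 1597 IP and 234 input reads in 2585 bases (5.69, 4.96 to 6.55). Of these, 1227 and 153 lay at 81781-83660, the fifth largest IP count of all contig peaks (6.69, 5.65 to 7.96), and 370 and 81 at 80606-81310 (3.81, 2.99 to 4.90). Both lay within the RefSeq model of 4933409K07Rik, at 60801-84642, and an IAPLTR1_Mm element covered 7.98% of the larger peak.

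On chr4_JH584293_random, 3 peaks held 813 and 192 reads (3.53, 3.01 to 4.15). The largest, at 2871-3485 on the minus strand, held 514 and 133 (3.22, 2.66 to 3.93), overlapped no repeat and lay 7463 bases from Il11ra2, a subunit gene of the interleukin 11 receptor. On chr4_JH584294_random, 2 peaks held 622 and 62 reads (8.36, 6.43 to 11.04), most of them in a peak of 1720 bases over an L1VL2 element at 30746-32465, with 480 IP and 18 input reads (22.2, 13.9 to 37.8). The other peak, at 18481-19140 on the plus strand, held 142 and 44 (2.69, 1.91 to 3.86).

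The highest ratios were on contigs with almost no input. On chr5_JH584299_random, 4 peaks held 1058 IP reads and 1 input read (882, 158 to 34867), all within L1 elements. The single peak of chr5_GL456354_random held 630 IP reads and no input read, 175-fold higher against the floor, with a lower limit of 142. The 2 peaks of chrUn_GL456385 held 217 IP and 2 input reads (90.4, 24.7 to 752). The lowest ratios among contigs with at least 20 IP and input reads were 0.5002 on chrUn_GL456367 (21 IP and 35 input reads, 0.277 to 0.883), 0.891 on chrUn_GL456396 (31 and 29, 0.520 to 1.53) and 1.13 on chrUn_GL456394 (27 and 20, 0.608 to 2.12). The value of chrUn_GL456367 rested on a single L1Md_F2 peak with 5 IP and 26 input reads, without which the ratio was 1.48, and the other 2 intervals contained 1.

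The other contigs among the 12 with the most reads were chr1_GL456211_random, with 456 IP and 196 input reads in 8 peaks (1.94, 1.64 to 2.30), chr1_GL456221_random, with 264 and 77 in 6 peaks (2.86, 2.21 to 3.73), and chrUn_GL456393, with 194 and 119 in 49 peaks (1.36, 1.08 to 1.72). The last fell to 0.833 with uniquely aligned reads. The remaining contigs held from 13 to 188 IP reads each. In all, 6 contigs had no input read, and 13 had fewer than 5, so that the upper limit of their ratio is set by few reads or not at all. On 1 of the 6, chrUn_GL456390, all 5 peaks, with 13 IP reads, had an input score of exactly 0. The minus strand of chr5_JH584298_random shared this pattern, and 3 contig strands in all had that score throughout. The third, the minus strand of chr4_JH584295_random, had 1 input read in its single peak. In the whole list 164 peaks had an input score of 0, 31 of them on chromosomes. Of the 164, 30 had input reads, so this score alone does not mark missing input.

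Strands of a contig often differed. Of 60 contig strands with peaks, 43 had an interval above 1, 2 below 1 and 15 neither, and 13 strands with 157 peaks had no input read at all. As for contigs, these sums lie within peaks called on the same reads. On 24 contigs with peaks on both strands, the intervals of the strands did not overlap on 9, with the minus strand higher on 7 and the plus strand on 2. Among the 7 was chr5_JH584298_random, whose minus-strand input was listed at 0 throughout. That minus strand was also among the 43 above 1. The minus strand was the higher one on chr4_JH584294_random (22.2 against 2.69 on the plus strand), on chr7_GL456219_random (81 IP reads and 1 input read against 107 and 56) and on chr1_GL456211_random (2.38 against 1.29), beside the 4 contigs with the values given above. The plus strand was higher on chr1_GL456221_random (185 IP and 25 input reads against 79 and 52) and on chrUn_GL456372 (31 and 1 against 82 and 26). On chrUn_GL456372 a single input read set the plus-strand value.

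**Figure D2:**
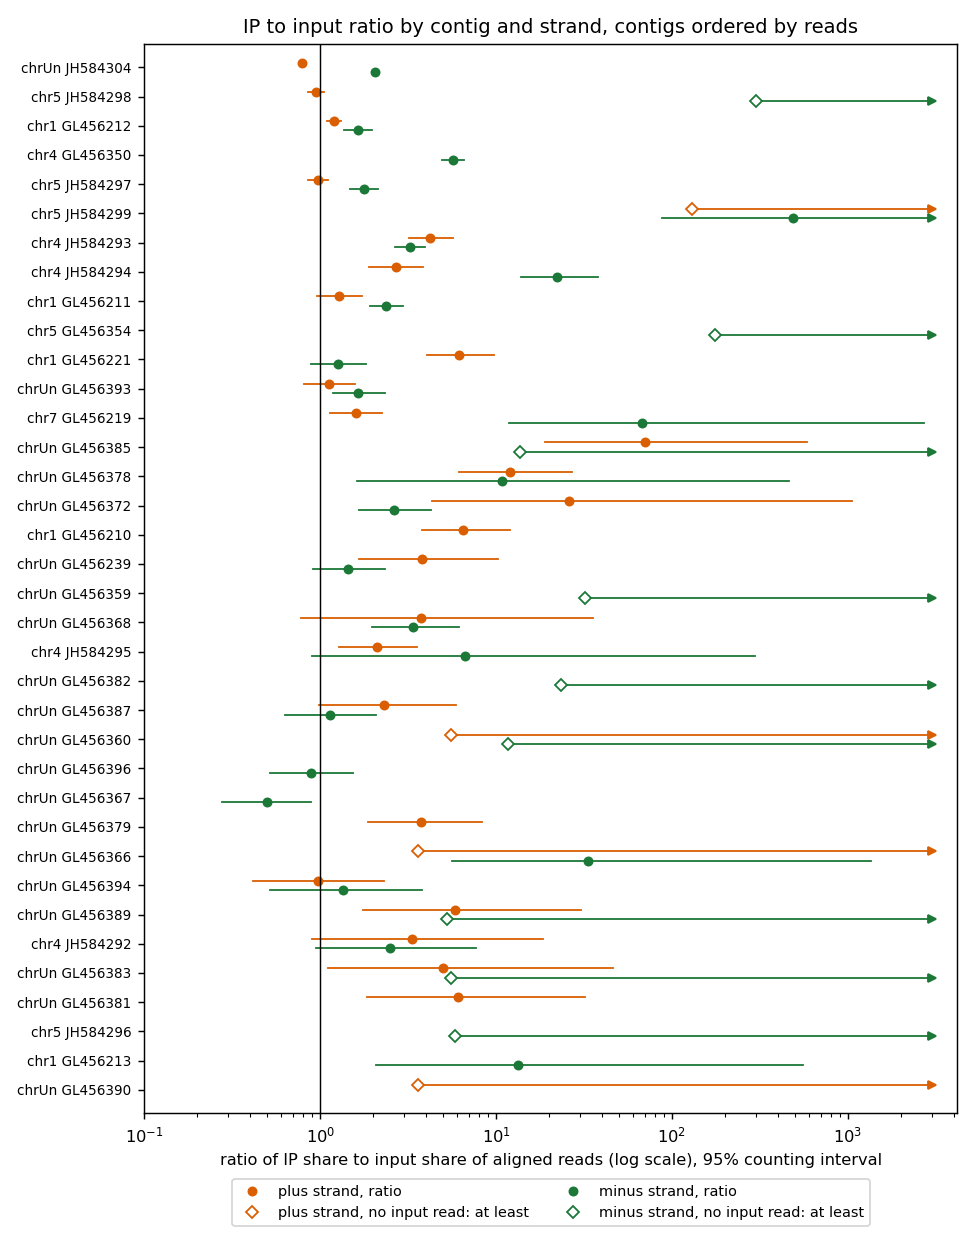
Ratio of the IP share to the input share of aligned reads for each contig (vertical axis, ordered by reads) and strand, on a log axis with a black line at 1; dots are ratios, open diamonds the ratio against a floor of 3 input reads where no input read was present, bars the 95% counting interval, and arrows an upper limit beyond the axis. The plus strand of chrUn_JH584304 sits at 0.786 and its minus strand at 2.05, while the minus strand of chr5_JH584298_random starts at 299.5. Where no input read was present, the bar starts at the diamond, which lies above the lower limit of the interval.

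Peak by peak, 131 of the 700 passed the peak caller's adjusted p of 0.05, or 18.7% (15.9 to 21.8, Clopper-Pearson), against 43.4% of all 2296 peaks. On the contigs of X and Y 8.54% passed and on the assembled chromosomes 91.2%. The 131 peaks had a median of 4 IP reads, 57 of them had at most 3 and 92 had no input read. The adjusted p followed the contig strand: on 30 of 60 strands every peak passed, on 18 none did and 12 were mixed. All 24 minus-strand peaks of chr7_GL456219_random passed with 81 IP reads in all, while 198 peaks with 1891 IP reads on chr5_JH584298_random did not.

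By their own counting interval, 142 contig peaks lay above 1, or 20.3% (17.4 to 23.5), against 49.8% of the whole list, and 17 lay below 1, or 2.43% (1.42 to 3.86), against 0.915%. Of the 21 peaks of the list that lay below 1, 17 were thus contig peaks, 4 were on the assembled chromosomes and none on the contigs of X and Y. Only 40 of the 142 also passed the adjusted p. The minus strand of chr5_JH584298_random held 66 of the 142, and 76 were left without it. With no input read, a peak needed 7 IP reads for its interval to lie above 1, and 229 of the 327 contig peaks without an input read had fewer, so an excess in these was not detectable at this depth. Among the 373 peaks with at least 1 input read, 44 lay above 1.

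The median ratio of the 700 peaks was 3.61 (2.97 to 4.17) with 0.5 added to both counts, and 1.39 with peaks lacking input set at their floor. Without the minus strand of chr5_JH584298_random the median with 0.5 added was 2.37. On the contigs of X and Y the median with 0.5 added was 2.73 (2.50 to 3.17), below 3.61 but above 2.37. Set at the floor it was 1.54 there, against 1.39. The assembled chromosomes had 15.4 (14.5 to 16.5) with 0.5 added and 15.5 at the floor. On the contigs 224 of 700 peaks, 32.0% (28.6 to 35.6), overlapped a peak on the other strand, as did 36.6% (33.0 to 40.2) of those on the contigs of X and Y. On the assembled chromosomes 0 of 882 did, which allows a share of up to 0.417%.

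**Figure D3:**
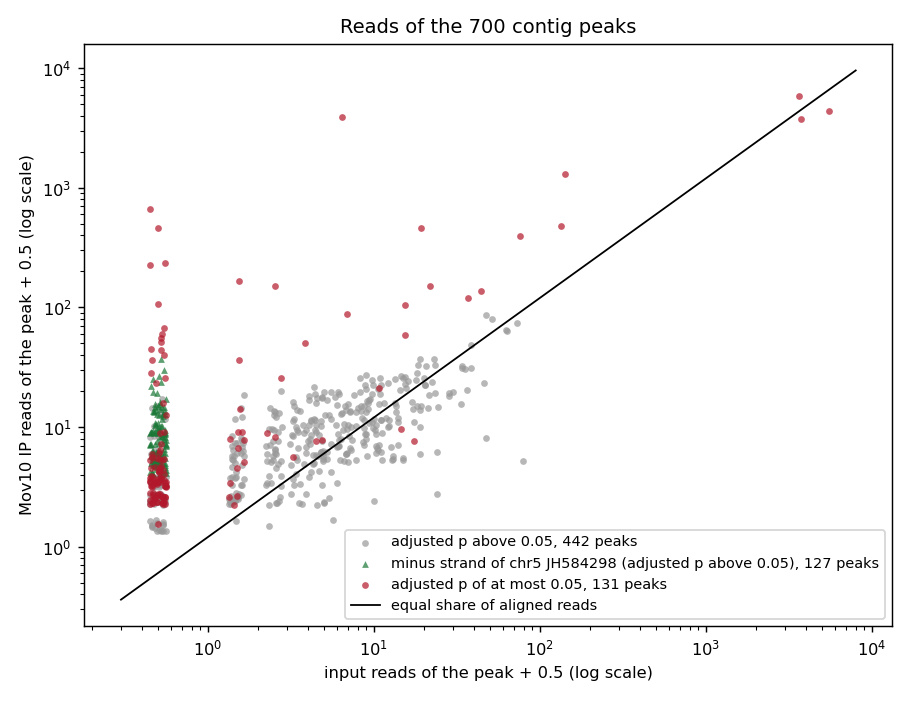
IP reads against input reads of each of the 700 contig peaks, with 0.5 added to both, log axes and a small random shift so that equal counts can be seen; red dots passed the adjusted p of 0.05 (131 peaks), grey dots did not, and green triangles are the 127 minus-strand peaks of chr5_JH584298_random. The column at the left holds the 327 peaks without an input read, and of the 4 large satellite peaks at the top 3 lie near the line of equal shares and the fourth far to its left.

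Repeats lay under 523 of the 700 peaks, by the RepeatMasker annotation in the study's list of overlaps, with at least 1 shared base. L1 and other LINEs lay under 258 peaks (4569 IP and 982 input reads, ratio 3.88, interval 3.62 to 4.16), LTR elements under 190 (3504 and 1068, 2.73, 2.55 to 2.93), SINEs under 91 (1398 and 655, 1.78, 1.62 to 1.96) and satellite under 33 (18044 and 12789, 1.18, 1.15 to 1.20). A peak can lie over several classes. Without the minus strand of chr5_JH584298_random the ratios were 3.34 (3.11 to 3.59) for LINEs, 2.41 (2.25 to 2.59) for LTR elements and 1.51 (1.37 to 1.66) for SINEs. That strand held no satellite peak. The 177 peaks without a repeat held 2464 and 949 reads (2.16, 2.01 to 2.34, or 2.04, 1.89 to 2.20, without that strand). Where a single element had to cover at least 50% of the peak, 191 LINE peaks, all of L1, 127 LTR, 31 satellite and only 10 SINE peaks were left, so most SINEs touched a peak without filling it.

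Of the peaks on assembled chromosomes that met exons in 1 relation of strands, 726 of 736 lay on the strand opposite to the exon. By that relation a peak opposite to an element would hold sense RNA of the element, and a peak on its strand antisense RNA. On the contigs the relation was less clear, with 22 exon peaks opposite to the exon and 13 on its strand, so peaks are described here by strand only.

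The 191 L1 peaks split into 84 on the opposite strand, with 2555 IP and 386 input reads (5.52, 4.96 to 6.16), and 107 on the element strand, with 1173 and 196 (4.99, 4.29 to 5.83), and the intervals overlapped. Without the minus strand of chr5_JH584298_random the ratios were 5.31 (4.76 to 5.92) and 3.67 (3.14 to 4.31), and the intervals did not overlap. The 6 L1 peaks with at least 100 IP reads weighed on this split. The other 80 and 105 peaks held 767 IP and 368 input reads on the opposite strand (1.74, 1.53 to 1.97) and 793 and 195 on the element strand (3.39, 2.89 to 3.99), and of those on the element strand 76 had no input read. The minus strand of chr5_JH584298_random held 42 of the 105 and 14 of the 80. Without it the element strand had 483 and 195 reads (2.06, 1.74 to 2.45) and the opposite strand 669 and 368 (1.52, 1.33 to 1.73). By subfamily, L1Md_A, a young and mobile group of L1, lay under 20 peaks (1249 and 76 reads, 13.7, 10.9 to 17.5) and L1Md_T, another such group, under 15 (717 and 63, 9.49, 7.33 to 12.5). L1Md_F2 lay under 28 peaks (251 and 55, 3.80, 2.83 to 5.19). The 156 peaks of subfamilies other than L1Md_A and L1Md_T held 1762 and 443 reads (3.32, 2.99 to 3.69). With the minus strand of chr5_JH584298_random kept, this order turned without the 6 large peaks. Then 18 peaks of L1Md_A held 149 and 76 reads (1.63, 1.23 to 2.18) and 12 of L1Md_T held 129 and 62 (1.73, 1.27 to 2.39). The 155 of the other subfamilies held 1282 and 425 (2.51, 2.25 to 2.81). Of these, 3, 5 and 48 peaks lay on that minus strand. They held 20, 48 and 340 IP reads and no input read. Taking these reads out as well leaves the input reads of the 3 sets unchanged. The other subfamilies then still had the highest ratio, so the order stayed turned. Intervals without both that strand and the large peaks were not computed. Without that strand but with the large peaks, the ratios were 13.5 (10.7 to 17.2), 8.85 (6.83 to 11.7) and 2.68 (2.40 to 2.98).

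The largest L1 peaks were few and local. The peak at chr5_GL456354_random:178291-178500 lay opposite to an L1Md_A element of 996 bases and held 630 IP reads and no input read. The peak at chr5_JH584299_random:506801-507000 lay opposite to an L1Md_A fragment of 438 bases. It held 470 IP reads and no input read (131-fold higher against the floor, lower limit 106). On the minus strand of that contig, 3 peaks of 225 bases lay within L1Md_T elements. The peak at 309151-309375 held 220 IP reads and no input read, on the strand of an element of 6341 bases and 406 bases from its 5′ end. The peak at 323101-323325 held 208 and none, opposite to an element of 5188 bases, and the peak at 408826-409050 held 160 and 1, on the strand of an element of 1587 bases. These 5 peaks held 1 input read between them.

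The 127 LTR peaks had a lower summed ratio than the 191 L1 peaks, 2.19 (1.99 to 2.41) against 5.34 (4.89 to 5.84). Among peaks with fewer than 100 IP reads and without the minus strand of chr5_JH584298_random, the ratios were 1.54 (1.395 to 1.71) and 1.71 (1.54 to 1.89), and the intervals overlapped. The 67 LTR peaks on the opposite strand held 620 IP and 224 input reads (2.31, 1.98 to 2.70) and the 60 on the element strand 949 and 374 (2.12, 1.87 to 2.39). Without that minus strand these ratios were 1.89 (1.61 to 2.22) and 1.96 (1.73 to 2.22). The peak at chrUn_GL456385:31711-32550 lay wholly within the internal part of an MTA element, on its strand, with 168 IP and 2 input reads (70.0, 19.1 to 583). It ended 169 bases before CAAA01205117.1, a predicted miRNA gene. On the other strand of the same contig, the peak at 32896-33110 held 49 IP reads and no input read.

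MTA_Mm-int lay under 7 peaks, with 411 and 191 reads (1.79, 1.51 to 2.14), and the MTA_Mm repeats themselves under 5, with 148 and 11 (11.2, 6.09 to 23.0). On chr1_GL456211_random a single MTA_Mm-int element at 111329-112427 carried minus-strand peaks with 93 IP and 42 input reads and with 62 and 57, and a plus-strand peak with 70 and 79. The neighbouring MTA_Mm repeat at 110933-111328 carried a plus-strand peak with 52 IP reads and no input read. Over these 4 neighbouring peaks the IP ranged from 52 to 93 reads and the input from 0 to 79. MERVL-int lay under 4 peaks with 89 and 86 reads (0.863, 0.634 to 1.17), of which 1 held 65 IP reads and no input read and 1 the 5 and 86 reads given above.

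IAP elements are young LTR retrotransposons that still move in laboratory mice. On the strand of the element, 9 IAP peaks held 171 IP reads and 1 input read (143, 25.2 to 5663), and on the opposite strand 9 held 36 and 19 (1.58, 0.882 to 2.92). The largest, at chrUn_GL456359:22801-22974 in IAPEz-int, held 115 IP reads and no input read, and 5 others, with 48 IP reads, lay in a single element on the minus strand of chr5_JH584298_random, where input was listed at 0. Without these 6 peaks the element strand held 8 and 1 reads (6.67, 0.894 to 296), an interval that overlapped that of the opposite strand. Of SINE families, Alu (the B1 elements) lay under 42 peaks (702 and 263 reads, 2.23, 1.93 to 2.57, or 1.87, 1.61 to 2.17, without the minus strand of chr5_JH584298_random). B2 lay under 33 (426 and 241, 1.47, 1.26 to 1.73, or 1.16, 0.979 to 1.37, without that strand) and B4 under 12 (197 and 116, 1.42, 1.12 to 1.80, or 1.36, 1.07 to 1.73, without it).

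The SINE peaks with the most IP reads were at chr4_JH584293_random:18481-18690 (166 and 22), where B1_Mur1 covered 10 bases, at chr5_JH584297_random:46081-52320 (63 and 64, B2_Mm2) and at chr1_GL456221_random:125181-125620 (59 and 15, ID_B1). In none of the 3 did the SINE cover 50% of the peak.

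**Figure D4:**
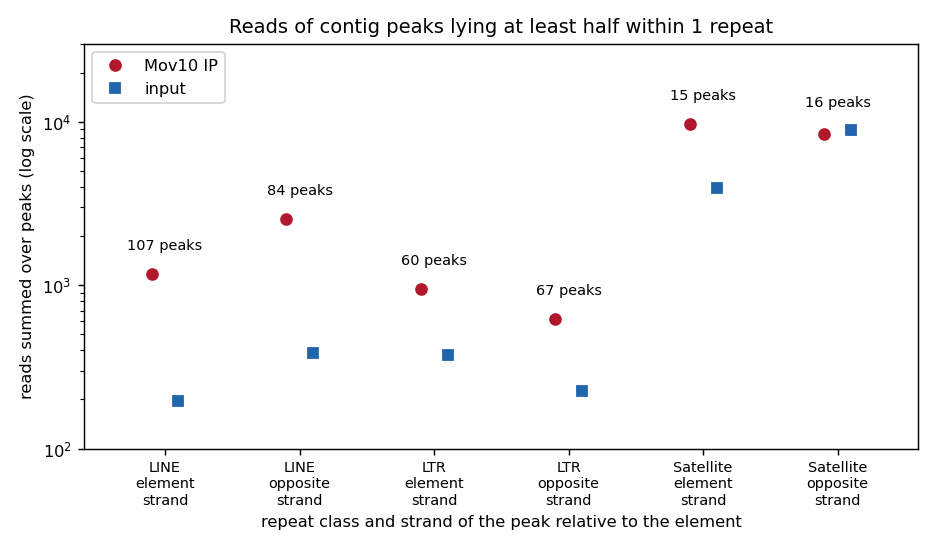
Mov10 IP reads (red dots) and input reads (blue squares) summed over contig peaks of which at least 50% lay within 1 LINE, LTR or satellite element, by the strand of the peak relative to the element, on a log axis, with the number of peaks above each pair. IP exceeded input in every group but the satellite peaks on the opposite strand, with 8381 and 8865 reads, and satellite groups held the most reads in the fewest peaks.

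Genes were seldom under these peaks. GENCODE M21 places 78 genes on 20 of the 36 contigs, and 13 of them, 12 protein coding and 1 predicted miRNA, on 8 contigs had an exon under a peak. In all 35 peaks met an exon, 22 opposite to it and 13 on its strand, against 726 and 10 of the chromosome peaks. Of the 13 genes, 6 had a summed ratio with an interval above 1, none below 1 and 7 neither. Without the minus strand of chr5_JH584298_random, 3 were above 1, none below and 10 neither.

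Ccl27, a chemokine gene of skin, had the most IP reads, with 166 against 22 in a peak opposite to its exon on chr4_JH584293_random (6.29, 4.02 to 10.3). RefSeq places Ccl27b, Gm13306, Gm2506 and LOC100861978 over the same peak, so it cannot be given to a single gene. CAAA01147332.1 on chr4_JH584295_random had 47 and 11 reads (3.56, 1.82 to 7.62). On chr5_JH584298_random, AC125178.1 had 89 and 43 reads in 5 peaks (1.73, 1.19 to 2.54), AC125178.3 had 81 and 32 in 4 (2.11, 1.39 to 3.28) and AC125178.2 had 29 and 8 in 3 (3.022, 1.35 to 7.65). All 3 sums include minus-strand peaks with input listed at 0. On the plus strand alone they had 35 and 43 reads (0.679, 0.422 to 1.09), 37 and 32 (0.964, 0.584 to 1.598) and 15 and 8 (1.56, 0.622 to 4.26).

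On chr5_JH584297_random, AC165294.2 had 75 and 71 reads (0.881, 0.628 to 1.24) and AC165294.1 had 36 and 30 (1.0003, 0.599 to 1.68). On chr1_GL456212_random, AC168977.1 had 69 and 64 in 6 peaks (0.899, 0.630 to 1.28) and AC168977.2 had 6 and 12 (0.417, 0.128 to 1.20). The predicted miRNA CAAA01098150.1 on chrUn_GL456372 had 20 and 1 (16.7, 2.67 to 691), with 1 peak on each strand, so it cannot be said which strand the RNA came from. The other 3 genes, Vmn2r122, a vomeronasal pheromone receptor, AC102264.1 and AC165294.3, had at most 5 IP reads each.

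RefSeq models, given for unlocalized contigs only, lay over 44 peaks. Gm16513 and Gm16367 overlap each other on chr5_JH584298_random, with 264 IP and 83 input reads in 24 peaks and 248 and 82 in 22, and A430089I19Rik on that contig had 114 and 40 in 7. Their plus-strand peaks alone held 100 and 83, 93 and 82, and 66 and 40 reads, with intervals that contained 1. Csprs on chr1_GL456221_random had 110 and 25 in 3 plus-strand peaks (3.67, 2.36 to 5.91) within its span of 111572-163011 and none over a GENCODE exon. The vomeronasal receptor models Vmn1r63 and Vmn1r187 on chr7_GL456219_random had 6 and 2 IP reads and no input read. Genes on the assembled chromosomes, some with the same names as genes above, were looked up after these values were seen. Each of Il11ra1, Il11ra2, Ccl27a, Ccl27b, Gm13306, A430089I19Rik, Gm3139, Gm16513, Vmn1r63, Sp100, Sp110 and Pisd has a GENCODE model there, and 0 of these 12 carried a peak of the list on either strand. The assembled chromosomes held only 882 peaks, and the share of all their genes with a peak was not counted. The 0 is therefore no result about these genes.

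Among the 19 peaks with at least 100 IP reads, 3 overlapped no repeat. They were the 4933409K07Rik peak at 80606-81310, the peak at chr4_JH584293_random:2871-3485 and the plus-strand peak at chr1_GL456210_random:53021-53240, within the gene AC125149.3 and opposite to it, with 117 IP and 15 input reads (6.50, 3.78 to 11.99). Of the 19 peaks, 17 had an interval above 1, and the other 2 were the plus-strand satellite peaks.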

How the data were processed

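Base calling (bcl2fastq 2.17.1.14) and alignment to unmasked mm10 (TopHat2 2.1.1, with at most 2000 alignments for a read) were done by the authors. RIPSeeker was run by them once per strand, with input as the control. Its model was trained on uniquely placed reads, after which every other read was given 1 place. The bin size was chosen by the caller. Peak lengths were multiples of 205 bases on the plus strand of chr1_GL456212_random and of 275 on that of chr5_JH584298_random. The unit thus differed between contigs on the same strand. The deposited list gives for each peak the read counts of IP and input, not scaled to library size, scores, p-values and an eFDR, all as the authors made them. No other columns of per-sample values were used.

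Here, reads were summed per contig and strand and divided by the aligned reads of each library, which the study's methods state. Ratios carry an exact conditional binomial interval and shares a Clopper-Pearson interval, both at 95%. Placed reads are not independent molecules, so intervals cover counting error only. Peaks were called on the same reads, and the intervals do not allow for that choice. With 1 library per group no p-value was computed and no result has a replicate check. Where input was 0, a floor of 3 reads was used, and medians carry a pseudocount of 0.5. Repeat and RefSeq names and positions came from the study's overlap lists, of which the RefSeq one is held only up to chromosome 8 and so lacks chrUn contigs. Exons came from GENCODE M21 on the same assembly, with contigs matched by their names. No genome sequence was used here, so peak sequences are not printed and copies of peaks were not searched.

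The text names the 12 contigs with the most reads, the 3 highest and 3 lowest ratios among contigs with at least 20 reads, the 10 peaks largest by IP reads, the 5 largest by input reads, the 5 largest by IP reads among those without input, 3 peaks per repeat class, and the genes with an exon under a peak; other items were picked after their values were seen. Members and lists were chosen with earlier results of these data known. The alternatives were the library total, the pseudocount, minimum reads, thresholds, overlap and left-out contigs and peaks. The interval code was tested on simulated data. Python 3.11.15 was used with numpy 2.4.6, pandas 2.3.3, scipy 1.17.1 and matplotlib 3.10.9.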

Additional observations from a re-analysis of the deposited data

How the results depend on the processing

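No paired analysis was possible because each group had 1 library. The search for copies of peaks elsewhere in the assembly was not run, as it needs a genome sequence. Dividing by uniquely aligned reads turned the summed ratio of all contig peaks from 1.51 to 0.928 and left 25 of 32 contigs above 1, with 5 in place of 1 below. It gave 0.787 on chr1_GL456212_random, 0.743 on chr5_JH584297_random, 0.833 on chrUn_GL456393, 0.719 on chrUn_JH584304, 0.735 on the plus strand of chr1_GL456212_random and 0.976 on that of chr7_GL456219_random. It moved contig strands below 1 from 2 to 7 and peaks below 1 from 17 to 49. With sequenced reads the summed ratio was 1.24, 2 contigs lay below 1, and chr5_JH584297_random and chrUn_JH584304 stood at 0.993 and 0.962. These changes follow from the divisor, which scales every ratio alike. Leaving out the contig with the most reads gave a summed ratio of 2.80, and leaving out the 10 peaks with the most reads gave 2.14. Without the top peak of each contig strand 28 strands lay above 1, against 43 before, and 1 below. Strands with a single peak dropped out of this count, so the fall is not all a loss of excess. Without the top peak of each contig, which drops the 4 contigs with 1 peak, none lay below. The ratio of chrUn_GL456367 was then 1.48, as on its minus strand, and 3.06 from peaks past the adjusted p, under which 0 contigs lay below 1. The cause was not tested. An adjusted p of 0.01 left 76 of 131 peaks. A minimum of 10 IP reads left 7 peaks below 1 and a median ratio of 2.20 in place of 3.61, and a pseudocount of 1 or leaving out the contig with the most peaks gave 2.50. Requiring that 1 annotation covers 50% of a peak left 10 of 91 SINE peaks and 13 of 35 exon peaks. Without the minus strand of chr5_JH584298_random, an alternative added after seeing the data, the summed ratio was 1.46, the median 2.37 and 76 of 142 peaks lay above 1. The other alternatives kept counts within 1.5 times. Of single contigs with input reads, 15 kept a ratio within their own interval with uniquely aligned reads, 11 fell below it, and 4 that had been above 1 by their interval crossed 1. With sequenced reads these numbers were 23, 5 and 2. Depth limits these counts, as 229 of the 327 peaks with no input read had too few IP reads to show an excess.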
